A study of Mus musculus with 20 samples.

Results

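The constitutive proteasome genes were taken as every gene whose symbol starts with Psma to Psmg followed by a digit, without the inducible subunits Psmb8, Psmb9 and Psmb10. The rule matched 46 of 16810 genes. They were the 14 subunits of the 20S core (Psma1 to Psma7 and Psmb1 to Psmb7), 17 subunits of the 19S regulatory particle, 3 chaperones of the regulatory particle (Psmd5, Psmd9 and Psmd10), 4 chaperones of the core (Psmg1 to Psmg4), 4 activators (Psme1 to Psme4), the inhibitor Psmf1, the tissue-restricted core subunits Psma8 and Psmb11, and Psmc3ip, a recombination factor that matches by symbol and is not a proteasome subunit.

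RNA was sequenced from eGFP-high microglia sorted by flow cytometry from the spinal cord of male mice heterozygous for CX3CR1+/eGFP on a C57BL/6 background, aged 12 weeks at injury. A lateral hemisection (HS) or a full transection (FT) was made at T9, and a 1 cm segment centred on the lesion was collected after 72 h, 1 week or 2 weeks. The 20 libraries were 3 from non-injured (NI) mice, 3 HS at 72 h, 2 HS at 1 week, 3 HS at 2 weeks and 3 FT at each time. The reporter also marks blood monocytes, all groups carry it, more mice than libraries were used in the study, and nothing in the labels says which animals make up a library, so the p-values measure the spread between these libraries.

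The 26S proteasome degrades proteins tagged with ubiquitin. Its 20S core is a stack of alpha and beta rings with the proteolytic sites inside, on Psmb5 (chymotrypsin-like), Psmb6 (caspase-like) and Psmb7 (trypsin-like). The 19S regulatory particle caps the core: a base with a ring of ATPases (Psmc1 to Psmc6) unfolds the substrate, and a lid removes the ubiquitin chain. After interferon signalling Psmb8, Psmb9 and Psmb10 replace the constitutive catalytic subunits, and the 11S activator made of Psme1 and Psme2 can bind in place of the regulatory particle. Proteasome genes are known to be driven together by the transcription factor Nfe2l1, which binds an antioxidant-like element, and many of their promoters hold a CCAAT box.

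The promoters of 3 core genes are shown because Psma1 had the largest difference at 72 h and Psmb5 and Psmb6 are catalytic. Psmb7, also catalytic, and Psmb1 have no window. The windows are the 250 bases before the RefSeq start on GRCm38.p6, written 5′ to 3′ on the strand of the gene. Psma1 (chr7:114276117-114276366, minus strand) encodes an alpha ring subunit, and the capitals mark CCAAT or its complement. Psmb5 (chr14:54617996-54618245, minus strand) and Psmb6 (chr11:70525107-70525356, plus strand) encode catalytic subunits, and the capitals mark the element TGANNNNGC.
Psma1: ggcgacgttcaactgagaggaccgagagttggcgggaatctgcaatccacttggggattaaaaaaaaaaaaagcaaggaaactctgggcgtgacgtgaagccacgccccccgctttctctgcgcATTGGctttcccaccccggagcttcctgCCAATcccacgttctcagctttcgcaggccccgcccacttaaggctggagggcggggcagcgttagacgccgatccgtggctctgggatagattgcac
Psmb5: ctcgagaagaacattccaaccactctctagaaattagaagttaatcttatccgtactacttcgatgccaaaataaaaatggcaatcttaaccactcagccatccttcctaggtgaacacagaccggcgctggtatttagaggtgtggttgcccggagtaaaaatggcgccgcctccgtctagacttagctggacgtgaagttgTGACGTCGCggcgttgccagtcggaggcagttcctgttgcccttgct
Psmb6: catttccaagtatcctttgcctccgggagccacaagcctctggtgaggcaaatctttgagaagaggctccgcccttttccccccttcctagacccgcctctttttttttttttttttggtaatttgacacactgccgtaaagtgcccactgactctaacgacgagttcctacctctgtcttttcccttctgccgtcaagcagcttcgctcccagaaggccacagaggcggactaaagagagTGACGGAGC

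Both elements were searched on both strands in the 38 members that have a window. A gene was counted when any of its windows held the element. TGANNNNGC was found for 5 of 11 core genes (45.5%), 4 of 14 regulatory particle genes (28.6%) and 38.7% of 27025 genes with a window. CCAAT was found for 6 of 11 core genes (54.5%), 4 of 14 regulatory particle genes (28.6%) and 37.5% of all genes with a window. Among the 12260 genes with a window that have expression values here, the shares were 41% and 39.7%. Over all 38 members with a window, 16 (42.1%) held TGANNNNGC and 14 (36.8%) held CCAAT. A match describes these letters only, and the shares of the members lie on either side of the share of all genes.

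Values are normalized counts in CPM, the reads of a gene scaled to the effective size of its library. Libraries held 3872918 to 34099232 reads, and the lowest value of a 26S subunit in any library came from 38 reads (Psmd3). The 8 microglia markers summed to between 15785 and 23611 CPM in NI and between 12824 and 27611 CPM in injured libraries. Some markers of other cells moved with time. The 8 monocyte and macrophage markers summed to 121 to 136 CPM in NI, 641 to 789 in HS at 72 h and 588 to 1261 in FT at 72 h. At 72 h 4 of the 8 rose in HS, and 6 rose and 1 fell in FT. At later times they summed to 311 to 537 CPM. The 5 oligodendrocyte markers summed to 1113 to 2256 CPM in NI and 376 to 2384 in injured libraries, and 0 were called in any group. The 5 astrocyte markers summed to 292 to 492 CPM in NI, and at 2 weeks 0 rose and 3 fell after each injury. The 7 proliferation markers, of which all 7 rose at 72 h after both injuries, summed to 112 to 123 CPM in NI, 749 to 1262 at 72 h and 118 to 234 later. Their part in the results below was not tested, and in bulk RNA a change in the number of cells of a type and in RNA per cell cannot be told apart.

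In addition, 8 of the 20 libraries stood apart. The level of Fth1, the ferritin heavy chain, was 413 to 1400 CPM in these 8 and 3472 to 9114 CPM in the other 12, and each of the 7 groups held at least 1 of the 8. They were NI replicate 3, replicate 2 of HS at every time, FT at 72 h replicate 2, FT at 1 week replicates 1 and 3, and FT at 2 weeks replicate 3. The labels give no batch. The split was seen in the values after they were examined, so it is used below only as a term in the fit or to give values within each kind of library. A total of 13 of 14 core subunits were higher in the low-Fth1 libraries of their own group (median of the mean log2 difference within groups 0.29), whereas regulatory particle subunits were near equal (median 0.02, from -0.50 for Psmd8 to 0.12 for Psmd12).

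At 72 h, core subunits were higher than in NI in every library after either injury, and the rise was about 2-fold for most of them. A gene was called when its Benjamini-Hochberg adjusted p from limma was under 0.05 and its difference at least 2-fold. In HS at 72 h, 19 of the 46 members rose and 0 fell, where 9.08% of all genes rose and 4.31% fell. Without the limit on fold, 37 of 46 rose against 16.4% of all genes. In FT at 72 h, 11 of 46 rose and 0 fell (8.14% and 4.09% of all genes), or 30 rose without the limit on fold (14.8%). The median log2 difference of the members was 0.92 in HS and 0.75 in FT, against -0.11 and -0.09 over all genes. The count in FT rested on single libraries: it was 5 without FT at 72 h replicate 2, 6 without NI replicate 2 and 4 within the 12 high-Fth1 libraries. The fold also depends on the scale. With every column rescaled to 1 total, in place of the deposited edgeR normalization, the median of all genes was -0.52 in HS and -0.48 in FT. At 72 h 0 of 46 members then reached the call, and 20 rose and 2 fell in HS and 11 rose and 1 fell in FT by the adjusted p alone. The shares of all genes called on the rescaled values were not counted, so whether these member counts are unusual cannot be said. On that scale the core median was 0.63 and 0.60 and the regulatory particle median 0.32 and 0.23. Both lay above the median of all genes, but rescaling moves all genes of a library by the same factor. Their order could therefore hardly change, and no conclusion is drawn from it.

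**Figure D1:**
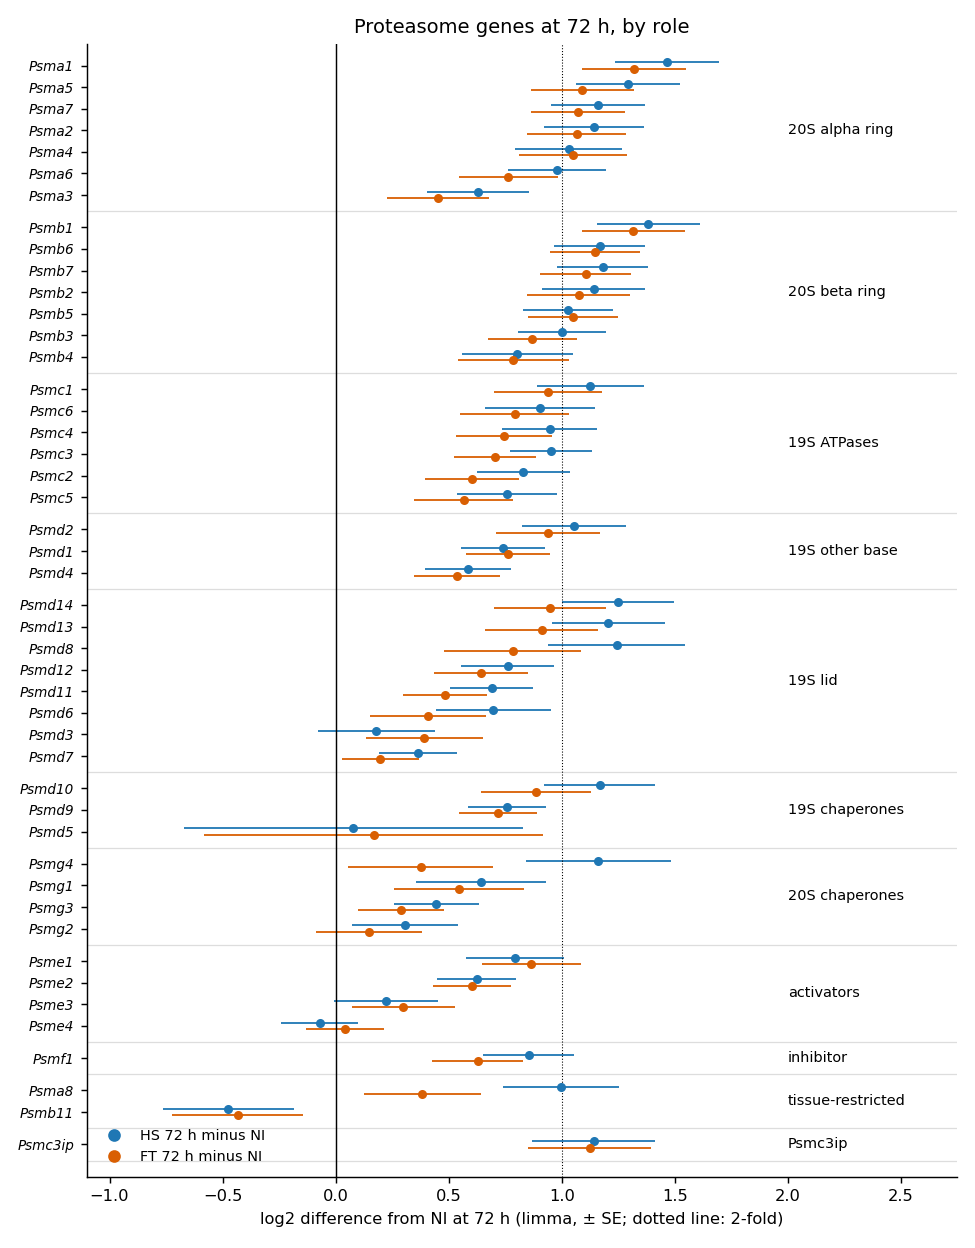
Log2 difference from NI at 72 h for the 46 genes, on the x axis with its standard error from limma, for HS (blue) and FT (orange), grouped by role on the y axis; the dotted line marks 2-fold. Core subunits lie between 0.45 and 1.46, regulatory particle subunits between 0.18 and 1.25, and Psmb11 lies below 0 after both injuries.

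In HS 11 of 14 core subunits rose by 2-fold or more and 14 of 14 passed the adjusted p, with a median log2 difference of 1.14, and in FT 10 of 14 and 13 of 14 did, with a median of 1.07. All 3 libraries lay above all 3 NI libraries for 14 of 14 core subunits after each injury, which held for 24.0% of all genes in HS and 22.2% in FT.

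Among alpha subunits, which form the gate of the core, Psma1 differed most. It was 117, 108 and 121 CPM in NI, 362, 378 and 238 in HS and 261, 355 and 259 in FT at 72 h. The groups did not overlap, and the log2 difference was 1.46 ± 0.23 (SE) in HS (limma adjusted p = 6.59e-05) and 1.32 ± 0.23 in FT (adjusted p = 0.00022). Psma3 differed least, with 173, 153 and 197 CPM in NI, 267, 337 and 215 in HS and 218, 293 and 210.2 in FT. Its log2 difference was 0.63 ± 0.23 in HS (limma adjusted p = 0.0419) and 0.45 ± 0.23 in FT, where it did not pass (adjusted p = 0.149). The other 5 alpha subunits lay between 0.76 and 1.29.

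Among beta subunits Psmb1, a non-catalytic member of the ring, differed most. It was 174, 151 and 176 CPM in NI, 439, 530.4 and 352 in HS and 342, 599 and 349 in FT, a log2 difference of 1.38 ± 0.23 in HS (limma adjusted p = 0.000119) and 1.32 ± 0.23 in FT (adjusted p = 0.000223). Psmb4, also non-catalytic, differed least of the beta subunits. It was 42.5, 38.5 and 31.0 CPM in NI, 72.8, 54.8 and 68.7 in HS and 74.0, 52.9 and 67.5 in FT, so it still separated from NI in every library, with log2 differences of 0.80 ± 0.25 (limma adjusted p = 0.0192) and 0.79 ± 0.25 (adjusted p = 0.0237).

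All 3 constitutive catalytic subunits rose by more than 2-fold. Psmb5 was 36.5, 36.3 and 39.4 CPM in NI, 74.0, 96.6 and 63.1 in HS and 67.9, 101 and 68.9 in FT at 72 h. Psmb6 was 165, 156 and 189 CPM in NI, 388, 457 and 311 in HS and 320.5, 515 and 320.5 in FT. Psmb7 was 56.8, 53.5 and 68.1 CPM in NI, 136, 165 and 109 in HS and 114, 167 and 111 in FT. For each, every library at 72 h exceeded every NI library, and replicate 2 was the highest of its group after both injuries. Their log2 differences were 1.03 to 1.18 in HS and 1.05 to 1.15 in FT, with limma adjusted p-values of 0.000169 to 0.000556 and 0.000228 to 0.000528. Without FT at 72 h replicate 2, a low-Fth1 library and the shallowest at 3872918 reads, Psmb5, Psmb6 and Psmb7 had 0.86, 0.92 and 0.91 in FT, under 2-fold, and without HS at 72 h replicate 2 Psmb5 had 0.86 in HS. Of the exon bases of Psmb7 34.9% overlap Nek6 on the other strand, and the strand setting of the counting is not stated.

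The regulatory particle also rose, by less than 2-fold for most subunits. In HS 5 of 17 subunits rose by 2-fold or more and 15 of 17 passed the adjusted p, with a median log2 difference of 0.83. In FT 0 of 17 reached the call and 11 of 17 passed the adjusted p alone, and 14 of 17 had an unadjusted p under 0.05 (36.6% of all genes, in either direction), with a median of 0.70. With edgeR and with DESeq2, 0 of 17 were called in FT as well, and 12 of 17 passed the adjusted p. The 17 leave out Shfm1 and Adrm1, regulatory particle genes whose symbols the rule does not match. Shfm1 was called after both injuries, with log2 differences of 1.36 in HS and 1.48 in FT. Adrm1 had means of 42.4 CPM in NI, 41.6 in HS and 46.3 in FT at 72 h.

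All 6 ATPases passed the adjusted p in HS and 5 of 6 in FT. Psmc1 differed most, at 121, 89.3 and 98.8 CPM in NI, 273, 248 and 166 in HS and 237, 183 and 176 in FT. Its log2 difference was 1.13 ± 0.24 (limma adjusted p = 0.00125) in HS and 0.94 ± 0.24 in FT (adjusted p = 0.00594). Psmc5 differed least, at 111, 93.8 and 94.0 CPM in NI, 195, 195 and 126 in HS and 158, 140.5 and 144 in FT. Its FT difference of 0.57 ± 0.22 did not pass (adjusted p = 0.0653), although the libraries did not overlap with NI.

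Of the other base subunits, all 3 passed the adjusted p after both injuries. Psmd2, a scaffold that receives ubiquitin carriers, was 143, 118 and 103 CPM in NI, 317, 233 and 212 in HS and 252, 209 and 233 in FT, a log2 difference of 1.05 ± 0.23 and 0.94 ± 0.23. Psmd4, a ubiquitin receptor, was 63.0, 61.8 and 55.3 CPM in NI, 88.1, 115 and 72.8 in HS and 98.8, 83.8 and 80.1 in FT, a log2 difference of 0.59 ± 0.19 and 0.54 ± 0.19. For both, every library at 72 h lay above every NI library.

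The lid ranged widely. Psmd14, the enzyme that cuts the ubiquitin chain from the substrate, was 64.8, 53.0 and 48.4 CPM in NI, 144, 155 and 101 in HS and 117, 116 and 89.5 in FT, a log2 difference of 1.25 ± 0.25 (limma adjusted p = 0.000703) and 0.95 ± 0.25 (adjusted p = 0.00745). Its partner Psmd7, which has the same fold but no catalytic activity, was 104, 82.5 and 85.9 CPM in NI, 115, 126 and 109 in HS and 115, 102 and 95.6 in FT. The log2 difference of Psmd7 was 0.36 ± 0.17 and 0.20 ± 0.17, and neither passed (limma adjusted p = 0.118 and 0.424). The difference between Psmd14 and Psmd7 was not tested.

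Psmd8, another lid subunit, was 90.0, 77 and 45.1 CPM in NI, 195, 151 and 143 in HS and 173, 60.2 and 155 in FT. The low values of 45.1 in NI and 60.2 in FT are from low-Fth1 libraries, and the FT difference of 0.78 ± 0.30 did not pass (limma adjusted p = 0.0647). With the kind of library as a term in the limma fit, the same difference had an SE of 0.23 and an adjusted p of 0.0132. Psmd8 is named after its values were seen.

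**Figure D2:**
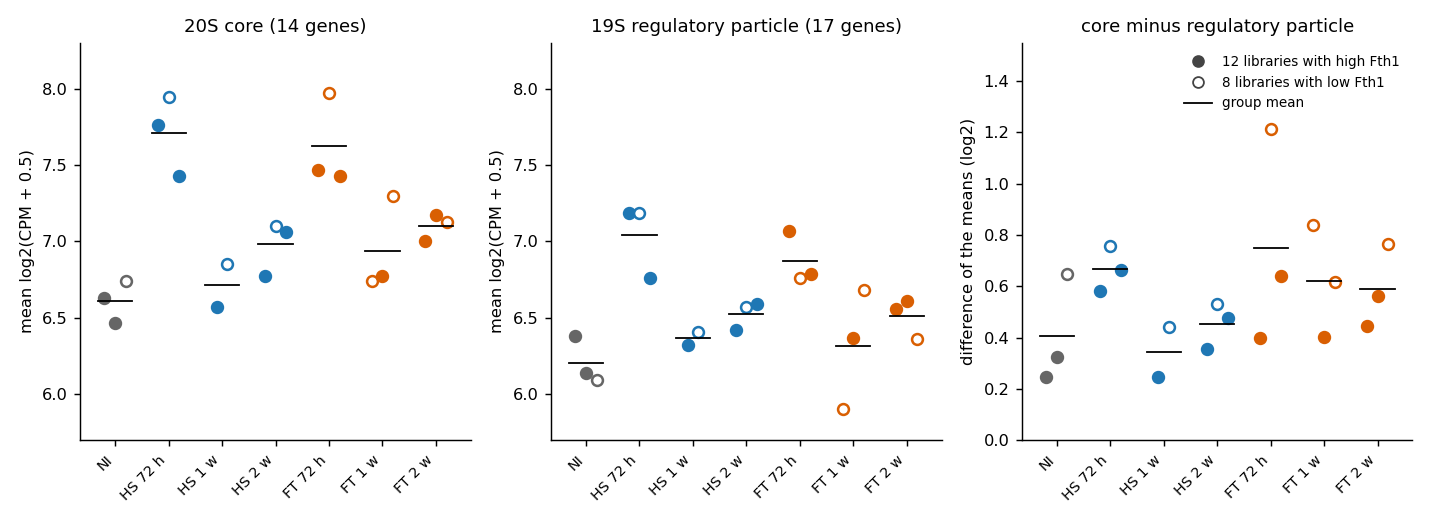
Mean log2(CPM + 0.5) over the 14 core subunits (left) and the 17 regulatory particle subunits (middle), and their difference (right), for each of the 20 libraries by group; open circles are the 8 low-Fth1 libraries and lines are group means. In each of the 7 groups the open circles lie above the other libraries in core minus regulatory particle.

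The core was set against the regulatory particle within each library, which needs no scaling between libraries. The mean log2 level of the core minus that of the regulatory particle was 0.25, 0.32 and 0.65 in NI. It was 0.58, 0.76 and 0.66 in HS and 0.40, 1.21 and 0.64 in FT at 72 h. The group means were 0.41 ± 0.21 (SD, n = 3), 0.67 ± 0.09 (n = 3) and 0.75 ± 0.42 (n = 3), and the groups overlapped. At 1 week the mean was 0.34 ± 0.14 (n = 2) in HS and 0.62 ± 0.22 (n = 3) in FT, and at 2 weeks 0.45 ± 0.09 (n = 3) and 0.59 ± 0.16 (n = 3). No test was made, since the members were chosen with results known.

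In all 7 groups the low-Fth1 libraries had the higher core minus regulatory particle values. Within the 12 high-Fth1 libraries, NI lay at 0.25 and 0.32, HS at 72 h at 0.58 and 0.66, and FT at 72 h at 0.40 and 0.64, so both 72 h groups lay above NI. So did HS at 2 weeks (0.36 and 0.48), FT at 1 week (0.40) and FT at 2 weeks (0.45 and 0.56), but not HS at 1 week (0.25). Within the other 8, NI lay at 0.65, HS at 72 h at 0.76 and FT at 72 h at 1.21. Later, HS lay at 0.44 and 0.53 at 1 and 2 weeks. FT lay at 0.84 and 0.62 at 1 week and at 0.76 at 2 weeks. Against NI of the same kind, the difference at 72 h was 0.34 and 0.11 in HS and 0.23 and 0.56 in FT. Without FT at 72 h replicate 2, the pooled FT difference of 0.34 was 0.11.

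Core and regulatory particle genes also differ in length. The median exon length was 1172.5 bases for the core and 1989 bases for the regulatory particle. Among all genes with a mean of at least 10 CPM, the median log2 difference at 72 h was 0.82 in HS and 0.69 in FT for 941 genes of at most 1500 bases, 0.36 and 0.28 for 2342 genes of over 1500 and up to 3000 bases, and 0.01 in both for 4483 longer genes. The 11 core subunits of at most 1500 bases had a median of 1.14 in HS and 1.07 in FT, and the 13 regulatory particle subunits of over 1500 and up to 3000 bases had 0.90 and 0.70. Both of these lay above the median of their length class, whereas the 3 regulatory particle subunits of at most 1500 bases (Psmc4, Psmc5 and Psmd6) had 0.76 and 0.57, below it. The 2 core subunits of over 1500 and up to 3000 bases had a median of 0.89 in HS and 0.76 in FT, near the regulatory particle subunits of that class. Of the genes over 3000 bases, Psmb1 of the core had 1.38 and 1.32, and Psmd1 of the regulatory particle 0.74 and 0.76. The part of length in the result was not tested. With regulatory particle subunits of at most 2000 bases only (9 subunits, an alternative chosen after the data were examined), core minus regulatory particle was higher than in NI by 0.24 in HS and 0.36 in FT at 72 h.

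**Figure D3:**
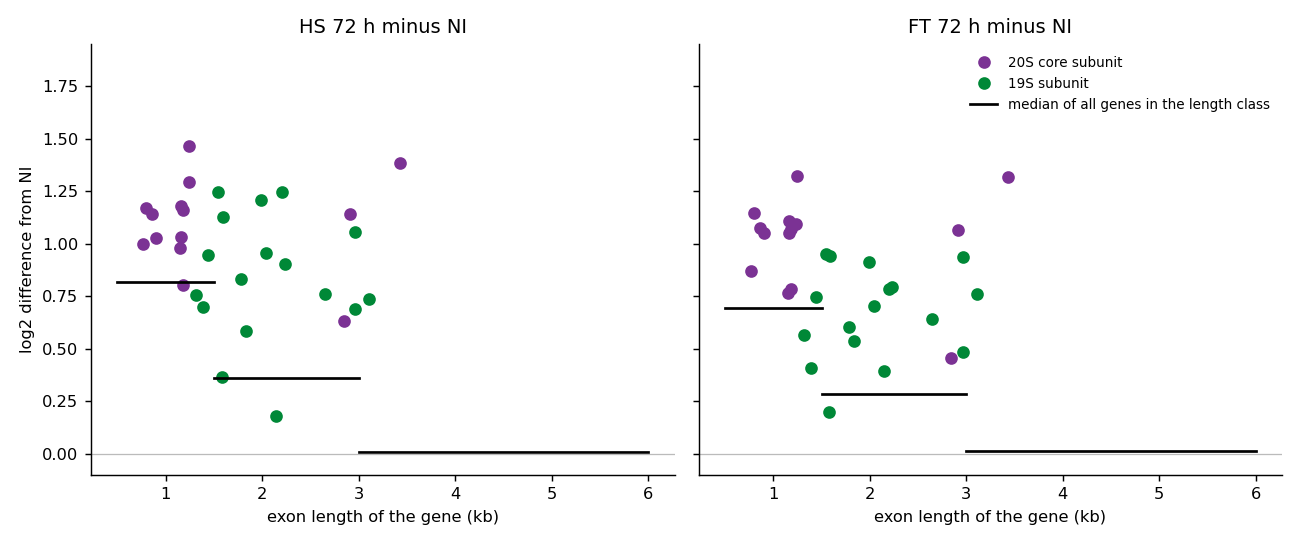
Log2 difference from NI at 72 h (y axis) against the exon length of the gene in kb (x axis) for core (purple) and regulatory particle (green) subunits, in HS (left) and FT (right); black lines are the median of all genes of at least 10 CPM in each length class. The median of all genes falls from 0.82 to 0.01 in HS with length, and the medians of the regulatory particle genes of over 1500 and up to 3000 bases and of the short core genes lie above that of their class.

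Levels between genes were compared per kb of exon, with the exons of all protein-coding transcripts of a gene joined. In NI the core had a median of 83.9 CPM per kb, from 25.9 for Psma2 to 213 for Psmb6, and the regulatory particle 36.0, from 5.14 for Psmd3 to 75.7 for Psmc5. At 72 h the core median was 179 CPM per kb in HS and 167 in FT, and the regulatory particle median 74.0 and 65.7. Subunits that occur in equal numbers in the particle differed 8.22-fold in CPM per kb within the core in NI, and 8.73-fold in HS at 72 h. These ratios depend on the annotated lengths. Psma2, with 2911 bases, had a mean of 75.3 CPM in NI before division by length, above the 37.3 CPM of Psmb4. Per kb, Psmb6 was the highest core subunit in all 7 groups and Psmd3 the lowest regulatory particle subunit in all 7.

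Of the chaperones that assemble the regulatory particle, Psmd10 (gankyrin) was 31.9, 23.2 and 34.0 CPM in NI, 64.8, 81.4 and 55.6 in HS and 52.9, 63.4 and 48.4 in FT, a log2 difference of 1.17 ± 0.24 (limma adjusted p = 0.0012) and 0.89 ± 0.24 (adjusted p = 0.0111). Psmd9 passed the adjusted p after both injuries, with log2 differences of 0.76 and 0.72. Psmd5 was spread over a wide range in every group. It was 41.1, 36.5 and 12.3 CPM in NI, 53.6, 7.92 and 50.2 in HS at 72 h and 47.3, 11.4 and 48.6 in FT at 72 h, and it was 41.4 and 11.4 in HS at 1 week and 44.3, 12.8 and 33.9 at 2 weeks. In FT it was 11.2, 45.3 and 8.36 CPM after 1 week and 37.4, 37.5 and 12.8 CPM after 2 weeks.

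The Psmd5 values fell into 2 ranges with no value between them: 7.92 to 12.8 CPM in the 8 low-Fth1 libraries and 33.9 to 53.6 CPM in the other 12. The mean log2 difference between the 2 kinds of library within groups was -1.90, the largest of the 46 members. Its 72 h differences of 0.08 ± 0.75 in HS and 0.17 ± 0.75 in FT had an SE above that of every other member, and with the kind of library as a term the SE was 0.21 and neither passed (limma adjusted p = 0.801 and 0.58). Within the 12 high-Fth1 libraries Psmd5 was 41.1 and 36.5 CPM in NI, 53.6 and 50.2 in HS and 47.3 and 48.6 in FT at 72 h, above NI in each, but the differences did not pass (limma adjusted p = 0.104 and 0.24).

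**Figure D4:**
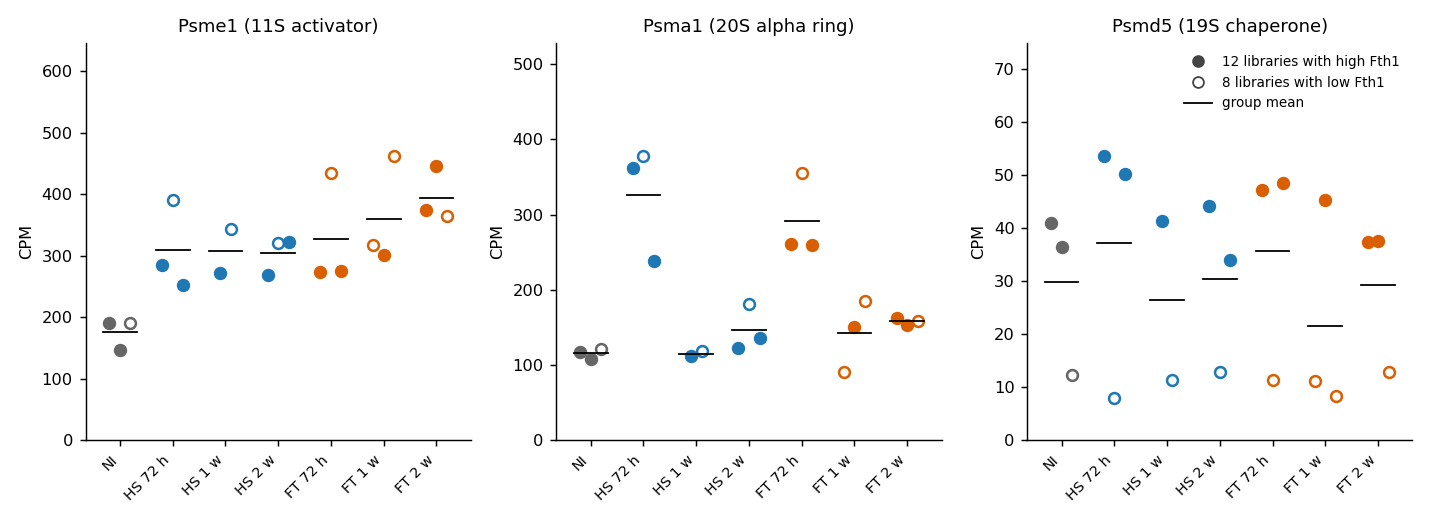
CPM of Psme1, Psma1 and Psmd5 in each of the 20 libraries by group; open circles are the 8 low-Fth1 libraries and lines are group means. Psma1 is high at 72 h and lower later, Psme1 lies above NI in every injured library, and Psmd5 lies under 13 CPM in all 8 open circles.

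Of the core chaperones Psmg1 to Psmg4, Psmg4 rose in HS. It was 7.33, 6.56 and 3.74 CPM in NI, 11.7, 13.9 and 14.4 in HS and 12.5, 3.51 and 9.35 in FT at 72 h. The log2 difference was 1.16 ± 0.32 in HS (limma adjusted p = 0.0102) and 0.38 ± 0.32 in FT (adjusted p = 0.417), and the fewest reads of Psmg4 in any library were 12. The difference of FT from HS did not pass (95% interval -1.45 to -0.12 on the log2 scale, limma unadjusted p = 0.0232, adjusted p = 1). Psmg2 differed least, at 31.5, 26.3 and 24.4 CPM in NI, 36.1, 42.0 and 25.4 in HS and 24.5, 42.9 and 26.2 in FT at 72 h, with overlap. Psmg1, Psmg2 and Psmg3 had log2 differences of 0.31 to 0.64 in HS and 0.15 to 0.55 in FT, none of which passed.

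Among the activators, Psme1 and Psme2, the subunits of the 11S ring, passed the adjusted p at 72 h after both injuries. Psme3, a nuclear homologue, and Psme4, a large single-chain activator, did not. Psme4 was 46.0, 51.5 and 60.0 CPM in NI, 50.9, 42.7 and 56.4 in HS and 48.0, 66.3 and 48.6 in FT at 72 h, and the 95% interval of its log2 difference was -0.43 to 0.29 in HS and -0.32 to 0.40 in FT. The inhibitor Psmf1 was 36.0, 31.3 and 30.0 CPM in NI, 61.0, 62.3 and 53.5 in HS and 50.3, 55.5 and 45.4 in FT, and its differences of 0.85 ± 0.20 and 0.63 ± 0.20 passed (limma adjusted p = 0.00315 and 0.0265).

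The tissue-restricted core subunits were near the floor. Psma8, known from testis, was 3.34, 5.15 and 3.45 CPM in NI and 10.9, 6.50 and 8.0 in HS at 72 h, and Psmb11, known from thymus, was 3.22, 3.35 and 2.88 CPM in NI and 2.15, 2.17 and 2.05 in HS at 72 h. Psma8 passed the adjusted p in HS (log2 difference 1.00 ± 0.26, limma adjusted p = 0.00635) and not in FT. Psmc3ip was called at 72 h after both injuries, with 3.16, 2.96 and 5.08 CPM in NI, 11.9, 9.99 and 5.33 in HS and 8.49, 9.93 and 7.30 in FT, and 29.8% of its exon bases overlap Mlx on the other strand. Psma8, Psmb11 and Psmc3ip were named after their values were seen.

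After 72 h few members were called against NI. At 1 week, 0 of 46 members were called in HS (0 by edgeR and by DESeq2 as well, and 1 of 46 at an unadjusted p under 0.05, against 12.8% of all genes), where 2.18% of all genes were. In FT 1 of 46 was called at 1 week (4.05% of all genes) and 1 of 46 at 2 weeks (4.88%), both times Psme1, and 8 and 15 of 46 had an unadjusted p under 0.05 (18.2% and 19.1% of all genes). In HS at 2 weeks 0 of 46 were called (8 at an unadjusted p under 0.05, against 16.1% of all genes, and 0 by edgeR and DESeq2), where 3.23% of all genes were. The median log2 difference of the core was 0.11 and 0.34 in HS and 0.34 and 0.46 in FT at 1 and 2 weeks, and that of the regulatory particle 0.13 and 0.32 in HS and 0.11 and 0.33 in FT. Levels at 2 weeks still lay above NI in many libraries: all libraries exceeded all NI libraries for 20 of 46 members in HS (14.5% of all genes) and 24 of 46 in FT (17.3%), of which 12 were core subunits in FT, against 12 of 46 in HS (20.2%) and 6 of 46 in FT (11.4%) at 1 week. At 2 weeks the log2 difference was above 0 for 31 of 31 26S subunits after each injury, but with columns rescaled to 1 total it was above 0 for 10 of 14 core and 8 of 17 regulatory subunits in HS and for 13 of 14 and 4 of 17 in FT, where the median of all genes was -0.29 and -0.36.

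Compared with 72 h of the same injury, 10 of 46 members had fallen in HS at 1 week, where 4.07% of all genes had. They were Psma1, Psma2, Psma5, Psma7, Psmb2, Psmb5, Psmb7, Psmd14, Psma8 and Psmc3ip, so 7 of the 10 were core subunits. The count rested on single libraries: it was 2 without HS at 1 week replicate 1, 5 without HS at 72 h replicate 2 and 19 without HS at 72 h replicate 3. In HS at 2 weeks 1 of 46 had fallen (3.37% of all genes), in FT 2 of 46 at 1 week (2.62%) and 1 of 46 at 2 weeks (2.68%). Psma1, at 112 and 119 CPM in HS at 1 week, 123, 181 and 136 in HS at 2 weeks, 90.7, 151 and 186 in FT at 1 week and 163, 153 and 159 in FT at 2 weeks, was called in 3 of the 4 comparisons with 72 h. At 2 weeks all its libraries still lay above the 3 NI libraries. The comparisons with NI and with 72 h share samples.

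Psme1 was the member called at the later times. It was 191, 147 and 191 CPM in NI and 284, 391 and 253 in HS at 72 h. In HS it was 272 and 343 CPM in the 1 week libraries and 269, 320.2 and 323 CPM after 2 weeks. The FT libraries had 274, 434 and 275 CPM at 72 h. They had 318, 301 and 462 at 1 week, and 374, 446 and 364 CPM in the 2 week group. All 17 injured libraries lay above all 3 NI libraries, which also held for Psmb1, Psmb6, Psmd9 and Psme2, in all 5 of 46 members (4.94% of all genes). The log2 difference was 1.01 ± 0.22 (limma adjusted p = 0.00495) and 1.16 ± 0.22 (adjusted p = 0.0011) in FT, and 0.80 ± 0.24 (adjusted p = 0.0915) and 0.79 ± 0.22 (adjusted p = 0.0373) in HS at 1 and 2 weeks. At FT 1 week the difference was 0.89 without NI replicate 2, 0.82 without FT at 1 week replicate 3 and 0.91 with the kind of library as a term, under 2-fold but with a limma adjusted p of 0.0025 in the last. With that term Psme1 passed the adjusted p in all 6 injured groups, from 0.000127 to 0.0431. The late rise was not particular to Psme1 among proteasome genes. Of the inducible subunits, which the rule leaves out, Psmb8 had log2 differences of 0.76 and 1.15 in FT at 1 and 2 weeks. It was called at 2 weeks, and all its injured libraries (lowest 129.1 CPM) lay above NI (highest 128.5 CPM).

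Psme2, on chromosome 14 like Psme1, had log2 differences of 0.29 and 0.38 in HS and 0.49 and 0.75 in FT at 1 and 2 weeks, of which the last passed the adjusted p (0.00726). Psmb1 in FT at 1 week (0.80 ± 0.23, limma adjusted p = 0.0342) and Psmb6 in FT at 2 weeks (0.87 ± 0.20, adjusted p = 0.00662) were the 26S subunits past the adjusted p at the later times. By the adjusted p alone 1 of 46 members rose in HS at 2 weeks (3.84% of all genes), 2 in FT at 1 week (5.11%) and 3 in FT at 2 weeks (6.21%).

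Direct comparison of FT with HS called 0 of 46 members and 0% of all genes at each time by limma; 505, 724 and 438 genes (3.00%, 4.31% and 2.61%) and 2, 0 and 1 of 46 members had an unadjusted p under 0.05 at 72 h, 1 week and 2 weeks, and 0 members were called by edgeR and DESeq2 as well. The interval for Psma1 at 72 h, FT minus HS, was -0.62 to 0.33 on the log2 scale, and that for Psmb5 was -0.39 to 0.43. For these 2 genes a difference of the size seen against NI lies outside the interval. Smaller differences, within the interval, cannot be told from 0 with these libraries. For members with small differences from NI, such as Psma3, or with wide intervals, such as Psmg4, this need not hold.

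The inducible catalytic subunits were set against the constitutive subunit each replaces, as log2 ratios within a library, with HS and FT of a time joined. At 72 h the ratio of Psmb10 to Psmb7 differed from NI by -0.86 on the log2 scale (-0.11 to 0.46 in 6 injured libraries against 1.00 to 1.16 in NI), and that of Psmb9 to Psmb6 by -0.37 (-2.43 to -2.0 against -1.94 to -1.82). Neither set of libraries overlapped with NI. The ratio of Psmb8 to Psmb5 differed by -0.26 with overlap at 72 h, and was higher than in NI by 0.57 at 1 week (2.01 to 2.41 in 5 libraries against 1.61 to 1.78) and by 0.67 at 2 weeks (2.21 to 2.49 in 6).

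The exact permutation test, two-sided, gave p = 0.0238 for the ratios of Psmb10 and Psmb9 at 72 h and of Psmb8 at 2 weeks, the smallest that 6 against 3 libraries allow, and 0.0357 for Psmb8 and for Psmb10 (-0.19) at 1 week, the smallest for 5 against 3. After adjustment over the 9 ratios all of these permutation p-values were 0.0643, so none passed. The remaining 4 had adjusted permutation p-values of 0.268 to 0.976. Psmb8 was 209.9, 129 and 218 CPM in the 3 FT libraries at 72 h, and without replicate 2, the low one, the 72 h difference of Psmb8 to Psmb5 was -0.05.

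**Figure D5:**
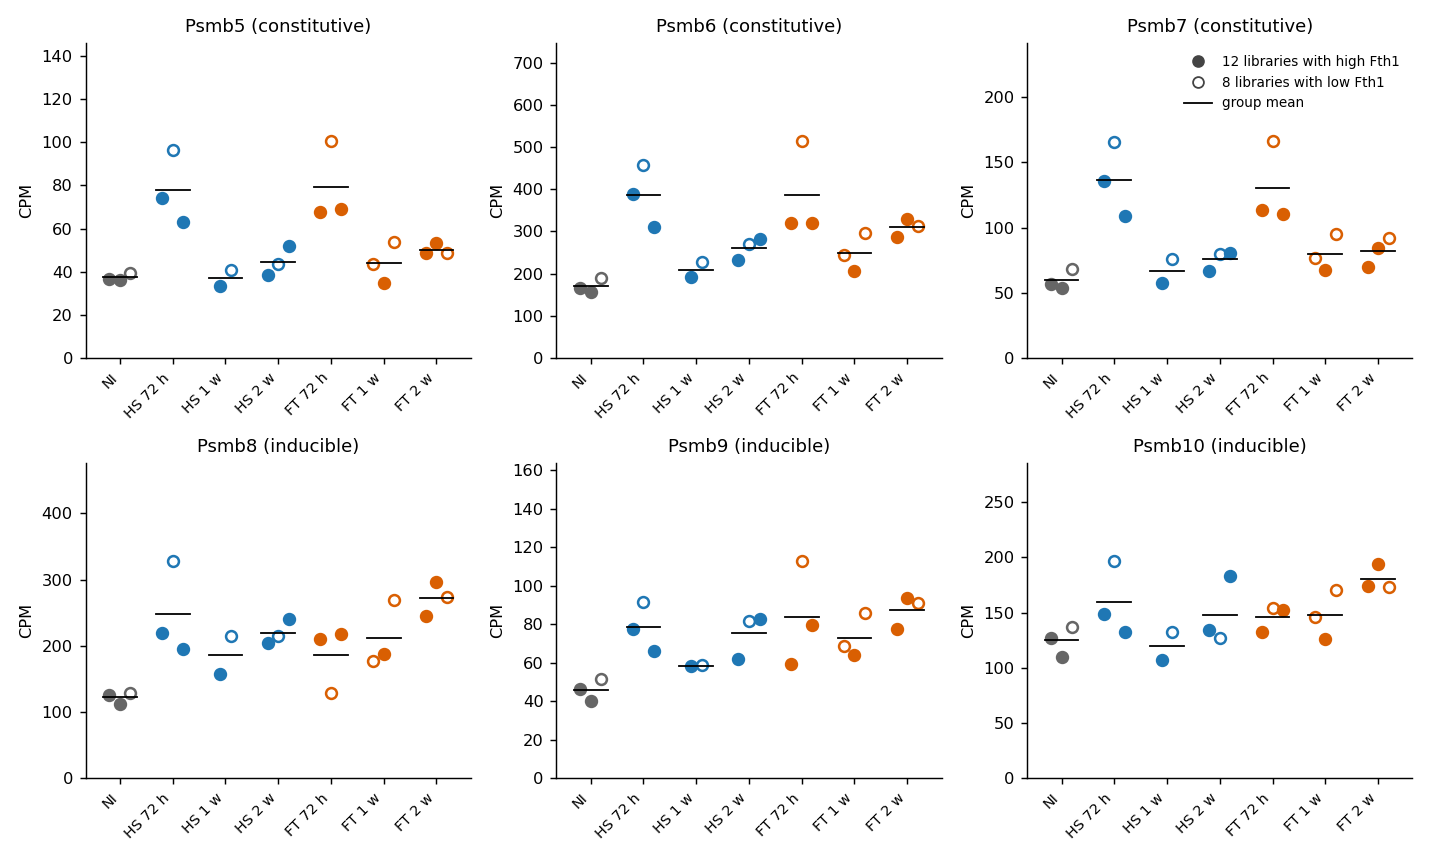
CPM of the constitutive catalytic subunits (upper row) and the inducible subunit that replaces each (lower row) in the 20 libraries by group, each panel on its own axis from 0; open circles are the 8 low-Fth1 libraries and lines are group means. Psmb5, Psmb6 and Psmb7 peak at 72 h, and Psmb8 lies above NI in every library at 1 and 2 weeks.

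Other genes of the pathway, from a list of 31 of which 30 were in the table, were counted the same way. In HS at 72 h 7 of 30 rose and 0 fell, and in FT 4 of 30 rose and 0 fell. Of all genes 9.08% and 8.14% rose by this rule. Without the limit on fold 10 rose and 1 fell in HS and 9 rose and 1 fell in FT, where 16.4% and 14.8% of all genes rose. Shfm1, which encodes the small lid subunit Sem1, had log2 differences of 1.36 and 1.48. Pomp, which matures the core, had 1.18 and 1.09, and Rps27a, which encodes ubiquitin fused to a ribosomal protein, had 1.35 and 1.27, all of which were called. The deubiquitinases Usp14 (1.09) and Uchl5 (1.01) were called in HS, and in FT had 1.00 and 0.79, which passed the adjusted p alone.

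Ubb, a polyubiquitin gene, had log2 differences of 0.06 and -0.07, neither of which passed. Nfe2l1 had -0.16 and 0.01 and Nfe2l2 0.34 and 0.26, none of which passed. Akirin2, which carries proteasomes into the nucleus, fell by 0.97 in HS and by 0.78 in FT (limma adjusted p = 0.000551 and 0.00398).

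As a scale for these values, the 78 cytosolic ribosomal protein genes had a median log2 difference of 1.29 in HS and 1.20 in FT at 72 h, and the 8 chaperonin subunits 0.81 and 0.65. At 1 and 2 weeks the ribosomal protein genes had 0.73 and 0.74 in HS and 1.11 and 1.08 in FT, while the core had 0.46 or less. The core and the ribosomal protein genes were thus close at 72 h and apart later; no test of the difference was made.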

How the data were processed

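PolyA RNA of sorted microglia was sequenced in 20 libraries in 7 groups, which were taken from the sample labels. The authors removed adapters with the FASTX-Toolkit, aligned reads to mm10 with TopHat2 2.0.9, counted them per gene with HTSeq 0.5.4p3, kept genes of at least 10 counts in at least 2 replicates and normalized with edgeR 3.3.6. Whether the counting used strand is not given in the sources used here. The deposited table holds a signal, the normalized count of each gene in CPM on edgeR's effective library size. The columns therefore total 777426 to 1202186 and not the same sum, and TMM factors computed from the recovered reads were 0.9988 to 0.9991 times the deposited ones in the 20 libraries. Whole reads were recovered for 100% of the 336200 values (within 0.001 read), 3872918 to 34099232 per library. At these depths the counting error is small for 26S subunits, and Psma8, Psmb11, Psmc3ip, Psmg1 and Psmg4 rest on fewer than 30 reads in at least 1 library.

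The main test was limma 3.58.1 (R 4.3.3) with trend on log2(CPM + 0.5) over all 20 samples, 1 mean per group, with Benjamini-Hochberg adjustment over 16810 genes. Fold changes are on the log2(CPM + 0.5) scale, which understates the change of low genes. A gene was called at an adjusted p under 0.05 and at least 2-fold. The limma fit was tested on simulated counts for HS and FT at 72 h against NI. The simulated libraries did not hold the low-Fth1 difference, and the other steps were not tested in this way. Same-numbered libraries of HS and FT at 72 h deviated together (r = 0.14, 0.27 and 0.18, with replicate 2 a low-Fth1 library in both). Those of FT at 72 h and HS at 2 weeks did as well (r = 0.15, 0.32 and 0.12, replicate 2 again low-Fth1). This is at most a hint of pairing, since no label pairs the libraries. The replicate block gave 0 calls between HS and FT at 72 h, as the main fit did. Alternatives were pseudocounts of 0.1 and 1, a filter of 1 CPM in 2 samples, no fold limit, columns scaled to 1 total, a replicate block, count tests of the recovered reads (edgeR 4.0.16; DESeq2 1.42.0), and dropping each replicate in turn. Ratios of catalytic subunits were tested by exact permutation (SciPy 1.17.1), and intervals use limma's moderated degrees of freedom. Terms for the 8 low-Fth1 libraries, the 8 or the 12 alone and short regulatory particle genes were added after seeing the data. Members named with values are the catalytic subunits, the largest and smallest mean 72 h difference of each role and any member called later. Members and lists were chosen with earlier results of these data known. Exon lengths and overlaps are from GENCODE vM21 on GRCm38, and promoters from RefSeq on GRCm38.p6. Some genes of the pathway list are not reported here by name.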

Additional observations from a re-analysis of the deposited data

Results flagged for a closer look

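Members called (limma adjusted p under 0.05 and at least 2-fold) between 72 h and a later time of the same injury are listed here with their log2 differences, later minus 72 h. In HS at 1 week they were Psma1 (-1.46), Psma2 (-1.15), Psma5 (-1.18), Psma7 (-1.06), Psma8 (-1.22), Psmb2 (-1.01), Psmb5 (-1.04), Psmb7 (-1.03), Psmc3ip (-1.38) and Psmd14 (-1.08). In HS at 2 weeks it was Psma1 (-1.14). In FT they were Psma1 (-1.08) and Psmc3ip (-1.45) at 1 week and Psmc3ip (-1.31) at 2 weeks. The chaperone Psmg2 lay on opposite sides of the NI mean of 27.4 CPM at 1 week: both HS libraries were below it (mean 22.7 CPM) and all 3 FT libraries above it (mean 30.2 CPM), and NI itself spanned 24.4 to 31.5 CPM. It was picked by this direction, and the limma difference of FT from HS at 1 week was 0.41 ± 0.26 (SE, log2), which did not pass (unadjusted p = 0.13, adjusted p = 0.999).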

How the results depend on the processing

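Member counts changed by more than 1.5 times as follows, against 19 (HS 72 h), 0 (HS 2 weeks), 11 (FT 72 h), 1 (FT 1 week), 1 (FT 2 weeks), and 10, 1, 2 and 1 (HS 1 week, HS 2 weeks, FT 1 week and FT 2 weeks against 72 h). With no fold limit they were 37, 1, 30, 2, 3, 21, 14, 9 and 2, by construction. With columns scaled to 1 total they were 0 at HS 72 h, FT 72 h, FT 1 week and FT 2 weeks, and 2, 0 and 1 for HS 1 week, HS 2 weeks and FT 1 week against 72 h. That scale with no fold limit gave 2 at FT 1 week and 5, 6 and 2 for HS 2 weeks, FT 1 week and FT 2 weeks against 72 h. edgeR and DESeq2 each gave 2 for HS 2 weeks against 72 h. With the kind of library as a term FT 1 week had 0, and within the 12 high-Fth1 libraries FT 72 h had 4, FT 1 week 0, and FT 1 and 2 weeks against 72 h 1 and 0. The cause of these changes was not tested.

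Leaving out 1 library gave 14 to 24 calls in HS 72 h, 5 to 15 in FT 72 h, 0 to 1 in FT 1 week and 1 in FT 2 weeks, and against 72 h 2 to 19 (HS 1 week), 1 to 2 (HS 2 weeks), 1 to 6 (FT 1 week) and 1 (FT 2 weeks). FT 1 week against 72 h had 1 without FT at 72 h replicate 2 and 6 without FT at 1 week replicate 3. HS 2 weeks against 72 h had 2 without HS at 72 h replicate 3 or HS at 2 weeks replicate 2. Core minus regulatory particle against NI ranged over 0.18 to 0.38 (HS 72 h), -0.16 to 0.06 (HS 1 week), -0.03 to 0.17 (HS 2 weeks), 0.11 to 0.52 (FT 72 h), 0.10 to 0.34 (FT 1 week) and 0.10 to 0.31 (FT 2 weeks), and FT 72 h was 0.56 within the 8 low-Fth1 libraries. The 2 week ratio of Psmb10 to Psmb7 (-0.02) ranged over -0.072 to 0.059 and was 0.083 within the 12.

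Differences that were near 0 or not called turned sign with columns scaled to 1 total: Psma3 (-0.015 in FT), Psmd7 (-0.14 in HS and -0.27 in FT), Psmd5 (-0.42 and -0.29), Psmg4 (-0.058 in FT), Psmg2 (-0.19 and -0.32) and Psme4 (-0.43 in FT). Leaving out 1 library, Psmd5 ranged over -0.46 to 0.96 in HS and -0.37 to 0.84 in FT, Psmg2 over -0.10 to 0.30 in FT. Psmd5 lay between -0.46 and -0.34 in HS without NI replicate 3, HS at 72 h replicate 1 (-0.39) or replicate 3, and at -0.37, -0.16 and -0.18 in FT without NI replicate 3, FT at 72 h replicate 1 or replicate 3. Psmg2 in FT was -0.18 within the 12 and -0.10 without FT at 72 h replicate 2. Psme4 was 0.14 (HS) and -0.0097 (FT) within the 12, 0.029 and 0.037 in HS without NI replicate 3 or HS at 72 h replicate 2, and -0.05 and -0.11 in FT without NI replicate 1 or FT at 72 h replicate 2.

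With a replicate block the counts were 19 and 11 at 72 h, and the block changed no other count by over 1.5 times. Deviations of same-numbered samples correlated at over 0.1 in 20 of 57 pairs (median -0.0017). Between HS and FT at 72 h all 3 pairs did. The 3 pairs of FT at 72 h and HS at 2 weeks did too (r = 0.15, 0.32 and 0.12), although injury and time differ. In the remaining comparisons with 3 pairs at least 1 pair did not, and no label pairs the samples.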
